A study of Mus musculus with 2 samples.

Results

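Nuclear receptors are transcription factors that small lipophilic ligands such as steroids, thyroid hormone, retinoids, fatty acids, oxysterols and bile acids switch on. Some members are called orphans because no ligand was known when they were cloned. Many of them bind DNA as pairs with a retinoid X receptor, and coactivator and corepressor proteins then set the output of their target genes. In the ovary, estrogen receptor beta (Esr2) is the main estrogen receptor of granulosa cells, while estrogen receptor alpha (Esr1) and the orphan receptor COUP-TFII (Nr2f2) are found mostly in theca and stroma.

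The 36 nuclear receptor genes described here were taken as a family by name, leaving out Pgr itself, the glucocorticoid receptor and the Nr4a, Nr5a, Nr1d and Pparg genes. The array had a probe set that names exactly 1 of these genes for 34 of them, out of 18193 genes so represented; Nr1h2 and Nr2e3 were not analysed here. The RNA came from ovaries of PR knockout mice, which lack the progesterone receptor (gene Pgr, also called PR), and of wild-type mice, all on the C57BL/6 background and aged 24 to 28 days. Both genotypes received 5 IU of PMSG, a gonadotropin that grows follicles, and 48 h later 5 IU of hCG, which triggers ovulation. Collection followed 11 h after hCG, around the expected time of ovulation. The Affymetrix Mouse Genome 430 2.0 array was hybridized once per genotype. The labels do not say how many mice went into each RNA, which allele was used, or which part of Pgr it disrupts. The whole ovary was used, so granulosa, theca, stroma, vessels and oocytes are all in the sample.

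With 1 array per genotype there is no replicate, so no difference was tested and no p-value is given. The number of arrays limits the precision of every value. A signal here is the authors' linear MAS5 intensity per probe set in arbitrary units. Probes differ in brightness, so signals are compared between genotypes and are not read as the level of 1 gene against another. Where signals of a marker list are summed, the brightest probe sets weigh most, so a sum can differ in direction from the list's median. Each array's median signal, 37.95 in the PR knockout and 36.2 in the wild type, served as a floor. Lower signals were set to it, and a gene counts as measured if it reached the floor on at least 1 array. Over 4771 genes with several measured probe sets, the log2 difference between genotypes varied with an SD of 0.25 between probe sets of the same gene. That spread covers probes and not animals. The 3 probe sets of Pgr lay near or under the floor on both arrays, so they give no check of the genotype labels.

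Of the 34 receptors with a probe set, 21 were measured, 19 of them on both arrays. The other 13 lay under the floor on both arrays, with signals from 1.57 to 34.5 in the PR knockout and from 1.12 to 25.5 in the wild type. These were Nr3c2 (the mineralocorticoid receptor), Esrrg, Rara, Rarb, Rxrg, Thrb, Vdr, Rorb, Nr1i2, Nr1i3, Nr2e1, Hnf4a and Hnf4g, and no direction is given for them. Over all genes 62.2% were measured, and 61.8% of the receptors. Because being measured depends on the signals compared, the counts that follow describe the measured receptors only.

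**Figure D1:**
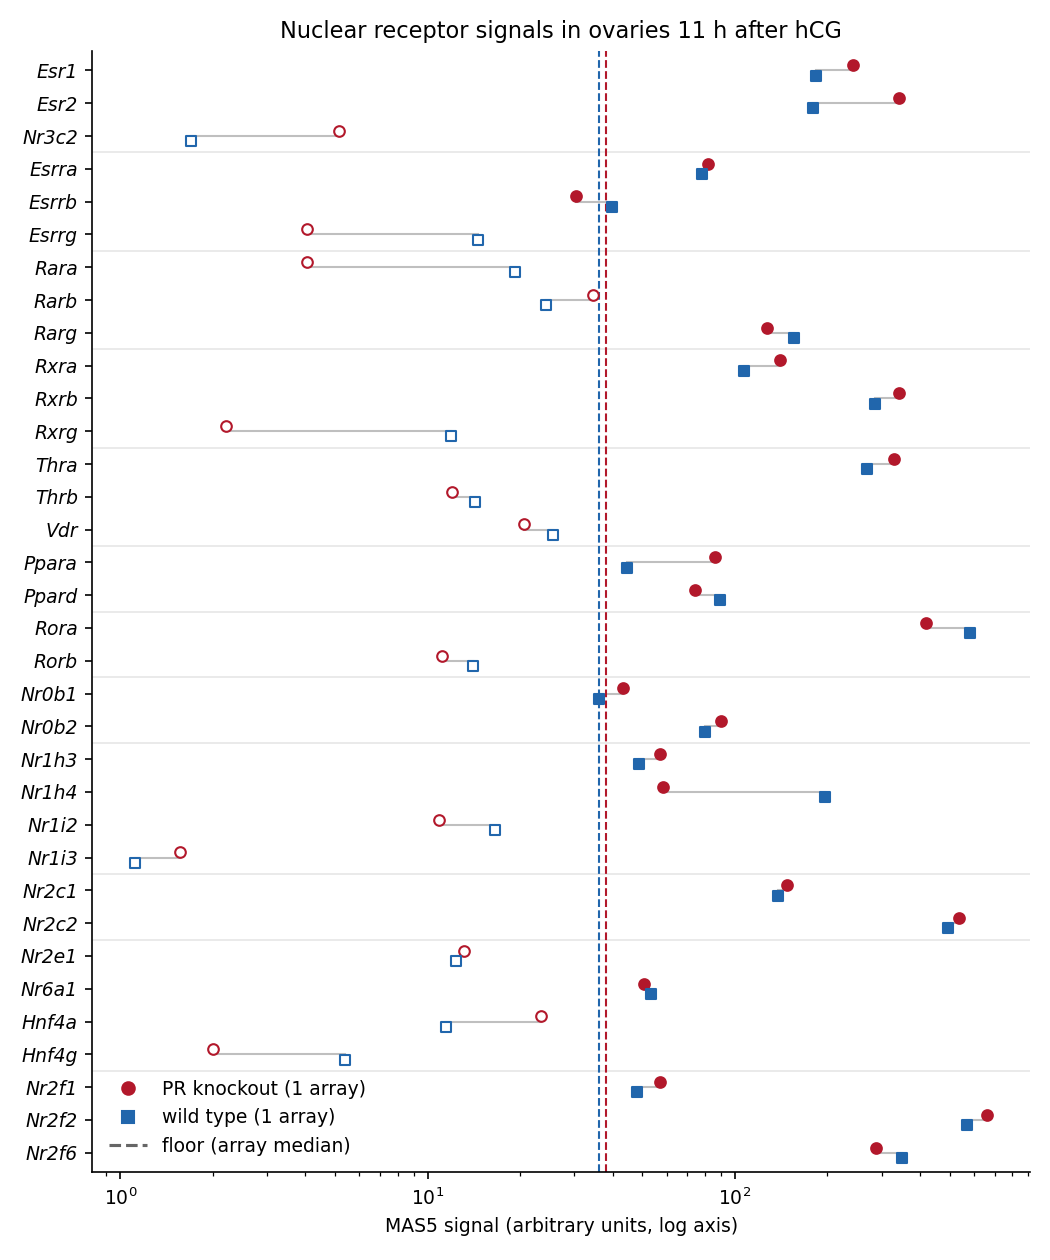
MAS5 signal (log axis) of the 34 nuclear receptor genes with a probe set, in the PR knockout array (red circles) and the wild-type array (blue squares), grouped by receptor class. Dashed lines mark the floors of 37.95 (PR knockout) and 36.2 (wild type), and open symbols are the 13 genes under the floor on both arrays. The widest gap among measured receptors is that of Nr1h4, at 58.2 in the PR knockout and 196 in the wild type.

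Nr1h4, Ppara and Esr2 were the 3 receptors that differed by at least 1.5-fold between genotypes. Nr1h4, which encodes the bile acid receptor FXR, was 3.37-fold lower in the PR knockout. Ppara, a fatty acid-activated receptor that drives fatty acid oxidation genes, was 1.94-fold higher, and Esr2 was 1.91-fold higher. The other 18 measured receptors differed by less than 1.5-fold. Thus 1 of 21 was at least 2-fold lower, against a background of 1.72% of all 11316 measured genes, and 0 of 21 were at least 2-fold higher, against 1.15%. At 1.5-fold, 2 of 21 were higher, against 6.54% of all measured genes, and 1 of 21 was lower, against 4.75%. All 3 receptors reached the floor in both genotypes. Of the 10633 genes for which that held, 1.57% were lower and 0.978% higher by 2-fold or more, and 4.56% were lower and 6.1% higher by 1.5-fold or more. The receptors' shares rest on 1 or 2 genes each and lie near the background.

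The sequences just upstream of these 3 genes are shown because they are the receptors whose signal differed most and because the factor missing in the knockout is itself a DNA-binding receptor. Each is the 250 bases before the start site listed by RefSeq in GRCm38.p6, written 5′ to 3′ on the gene's strand. Capitals mark matches to motifs searched on both strands, namely AGGTCA (the half-site of many nuclear receptors), AGAACA (the half-site of the progesterone receptor and related steroid receptors), GGGCGG (a GC box) and TGACG (the half-site of the cAMP response element). No matches overlap in these sequences.
Nr1h4, chr10:89506659-89506908, minus strand: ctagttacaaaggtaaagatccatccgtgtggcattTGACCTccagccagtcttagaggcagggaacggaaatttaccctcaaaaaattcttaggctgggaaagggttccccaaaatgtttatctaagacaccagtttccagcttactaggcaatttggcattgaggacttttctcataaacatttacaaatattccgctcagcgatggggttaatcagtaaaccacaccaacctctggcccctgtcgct
Esr2, chr12:76177260-76177509, minus strand: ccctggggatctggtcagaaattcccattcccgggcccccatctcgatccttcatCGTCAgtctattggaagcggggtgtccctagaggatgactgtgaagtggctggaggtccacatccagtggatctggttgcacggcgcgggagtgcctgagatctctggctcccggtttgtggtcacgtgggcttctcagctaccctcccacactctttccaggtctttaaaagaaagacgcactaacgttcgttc
Ppara, chr15:85735526-85735775, plus strand: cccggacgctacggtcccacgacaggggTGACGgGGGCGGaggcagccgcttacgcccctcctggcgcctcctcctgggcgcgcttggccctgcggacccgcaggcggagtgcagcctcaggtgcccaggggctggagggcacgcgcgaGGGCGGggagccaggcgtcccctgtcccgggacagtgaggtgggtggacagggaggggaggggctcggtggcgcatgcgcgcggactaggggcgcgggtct

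The Nr1h4 sequence held 1 match to AGGTCA, on the opposite strand and beginning 214 bases before the start site, and was 44.4% G and C. The Esr2 sequence held 1 match to TGACG, also on the opposite strand, and was 56.4% G and C. The Ppara sequence was 76.4% G and C and held 2 matches to GGGCGG and 1 to TGACG. The progesterone receptor half-site was found in none of the 3 windows, which says only that its letters are not in these bases. RefSeq listed 52 such windows for 34 of the 36 family members, all but Thra and Hnf4g. The nuclear receptor half-site was in 13.5% of those 52 windows and in 14.0% of the 32851 windows of all genes. The progesterone receptor half-site was in 3.85% of the family's windows, 1 each of Esrrb and Thrb, and in 16.1% of all. The GC box was in 40.4% of the family's windows and 32.7% of all, and the cAMP response element half-site in 19.2% and 17.8%. A match is a string of letters and was not tested as a binding site.

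The steroid receptors were both higher in the PR knockout where measured. Esr2 had a signal of 342 in the PR knockout ovary, against 179 in the wild-type ovary. Its log2 difference was 0.94, from a single probe set, and 155 of the 11316 measured genes were as far up or further. Among the genes of similar mean signal (246 to 320), 3.29% were at least 1.5-fold higher. Esr2 lies near the lower edge of that range, and in the range below it (183 to 246) the share was 6.3%. Esr1 had a signal of 243 in the PR knockout, against 184 in the wild type, a log2 difference of 0.40. Its other measured probe set, at 64.7 in the PR knockout and 42.0 in the wild type, gave 0.63. Both estrogen receptors thus stood higher by every probe set that was measured.

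Granulosa cell markers were mostly higher beside Esr2. Of 11 such genes with a probe set, all were measured and none was at 0; 9 were higher in the PR knockout, 5 of them by at least 1.5-fold. Over all measured genes 57.7% were higher, and 6.54% by at least 1.5-fold. Their summed signal was 19294 in the PR knockout and 16817 in the wild type, and their median log2 difference was 0.27. In whole ovaries, fewer cells of a type and less RNA per cell cannot be told apart, and the part of granulosa cell content in the Esr2 difference was not tested. Estrogen receptor target genes showed no common direction: of 8 measured, 4 were higher and 4 lower. At 1.5-fold 0 of them were higher and 2 lower, against 6.54% and 4.75% of all measured genes. Pgr itself is in this list and counts among the higher genes, at 42.8 in the PR knockout and 36.5 in the wild type, both near the floor. The median log2 difference of the 8 was 0.03, against 0.06 over all measured genes. The growth regulator gene Myc had a log2 difference of -0.67 and the chemokine gene Cxcl12 one of -0.59, though the probe sets of Cxcl12 ran from -0.59 to 0.72. Greb1, a gene that estrogen receptor induces in human breast cancer cells, had a log2 difference of 0.37. That was the lowest of its 4 measured probe sets, which ran up to 0.85.

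The estrogen-related receptors are orphans that resemble estrogen receptors but do not bind estrogen, and they regulate genes of energy metabolism. Esrra had a signal of 81.7 in the PR knockout, against 78.4 in the wild type, a difference within the spread of probe sets. Esrrb had 30.5 in the PR knockout, under the floor, against 39.7 in the wild type, so close to the floor that the difference carries no size.

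Retinoid receptors differed little and not all in 1 direction. Rarg, a receptor for retinoic acid, had a signal of 127 in the PR knockout, against 156 in the wild type. Its 2 measured probe sets were both lower in the PR knockout, with log2 differences of -0.29 and -0.31. Rxrb, one of the shared partners of many other receptors, had 342 in the PR knockout, against 287 in the wild type, a log2 difference of 0.25. Rxra had 141 in the PR knockout, against 107 in the wild type, a log2 difference of 0.39. Its other measured probe set went the opposite way, at 63.9 in the PR knockout and 100.1 in the wild type, a log2 difference of -0.65. The direction for Rxra is therefore unsettled. Of 10 target genes of retinoic acid receptors, 6 were measured, 4 of them higher and 2 lower, 0 by 1.5-fold, with a median log2 difference of 0.19. Dhrs3, a retinaldehyde reductase, had a log2 difference of 0.55, the retinoic acid-binding protein gene Crabp2 0.39, and the secreted protein gene Rarres2 0.36.

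Thra encodes the thyroid hormone receptor that is found in most tissues. It had a signal of 329 in the PR knockout, against 269 in the wild type, a log2 difference of 0.29. All 3 of its measured probe sets were higher in the PR knockout, from 0.29 to 0.70. The second thyroid hormone receptor gene Thrb and the vitamin D receptor gene Vdr were under the floor. Of 10 target genes of the thyroid hormone and vitamin D receptors, 2 were measured by their probe set with the highest mean signal. These were Klf9, with log2 differences from -1.11 to -0.10 over 4 probe sets, and Dio2, a thyroid hormone-activating deiodinase, at -0.03. The median of these 2 was -0.07. Thrsp, a lipid synthesis gene, reached the floor only in a dimmer probe set, with a log2 difference of 0.34.

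Ppara had a signal of 86.3 in the PR knockout, against 44.5 in the wild type. The wild-type value is close to the floor, and 12.4% of genes of similar mean signal (37.4 to 67.7) were at least 1.5-fold higher in the PR knockout. Its other measured probe sets gave smaller differences. One had 46.8 in the PR knockout, against 38.1 in the wild type, and the other 43.6, against 40.6, with log2 differences of 0.30 and 0.10. All 3 were higher in the PR knockout, but averaging them gave a log2 difference of 0.45, under 1.5-fold. Ppard, the PPAR found in most tissues, had 74.3 in the PR knockout, against 89.1 in the wild type, a log2 difference of -0.26. Pparg, the PPAR gene left out of the family, had 211 in the PR knockout, against 270 in the wild type, a log2 difference of -0.36.

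Of 12 PPAR target genes, 8 were measured, 3 of them higher and 5 lower in the PR knockout, with a median log2 difference of -0.13. Over all measured genes 57.7% were higher. In this list 1 gene was at least 2-fold lower, against 1.72% of all measured genes, and 0 were at least 1.5-fold higher, against 6.54%. That gene was Fabp4, a fatty acid-binding protein of fat cells, macrophages and capillary endothelium. It had a signal of 70.9 in the PR knockout, against 335 in the wild type, and its 2 probe sets gave log2 differences of -2.24 and -1.07. Angptl4, a secreted inhibitor of lipoprotein lipase, followed at -0.56 and the peroxisomal thiolase gene Acaa1a at -0.37. The 3 fat tissue markers with a probe set were under the floor on both arrays, with summed signals of 24.7 in the PR knockout and 26.8 in the wild type. Of 7 endothelial markers, all measured, 5 were higher and 2 lower, with summed signals of 1622 in the PR knockout and 1354 in the wild type.

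Rora, a receptor that activates clock and lipid metabolism genes, was lower in the PR knockout. Its signal was 419 in the PR knockout, against 582 in the wild type, a log2 difference of -0.47. Of its 8 measured probe sets 7 were lower, and together they ran from -0.55 to 0.40. The difference stayed under 1.5-fold in each of them.

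**Figure D2:**
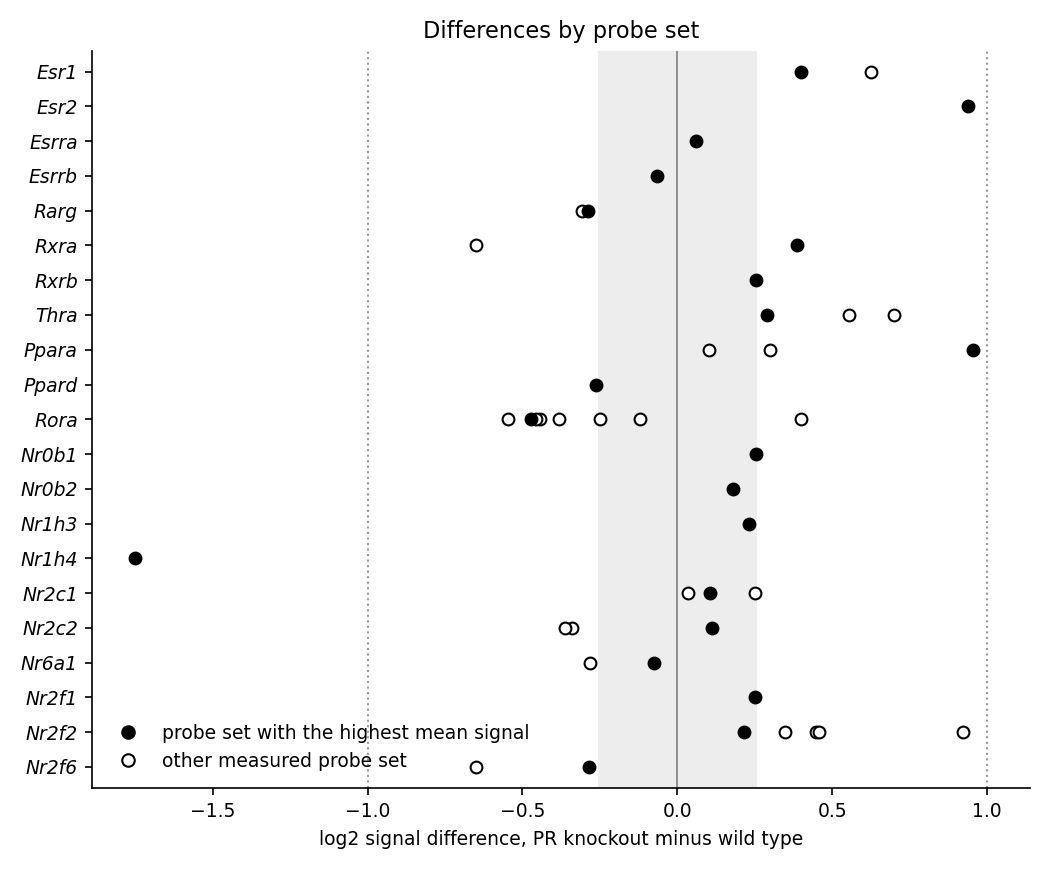
Log2 signal difference (PR knockout minus wild type) of each measured probe set of the 21 measured receptors. Filled circles are the probe sets with the highest mean signal and open circles the others; the grey band is 1 SD (0.25) of differences between probe sets of the same gene, and dotted lines mark 2-fold. Rora has 7 of 8 probe sets below 0, Nr2f2 has 5 of 5 above 0, and Rxra has 1 on each side.

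Nr1h4 was the member with the widest difference. Its signal was 58.2 in the PR knockout ovary, against 196 in the wild-type ovary, a log2 difference of -1.75 from a single probe set. Over all 11316 measured genes, 52 were as far down or further, Nr1h4 included. Among the 1063 genes of similar mean signal (99.7 to 137), 17 were at least 2-fold lower. The size depends on the treatment of dim signals, since with the floor raised to each array's 70th percentile the log2 difference was -0.62. Nr0b2 encodes SHP, a receptor-like protein without a DNA-binding domain that FXR induces in liver. It had 90.2 in the PR knockout, against 79.7 in the wild type, a log2 difference of 0.18. Of 8 FXR target genes from liver and intestine, a list that includes Nr0b2, 6 were under the floor on both arrays. The phospholipid transporter gene Abcb4 had 30.4 in the PR knockout, under the floor, against 42.9 in the wild type.

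Markers of the ovarian surface epithelium were mostly lower in the PR knockout, the keratin genes among them the most. All 7 were measured and none was at 0. Of them 6 were lower, while over all measured genes 57.7% were higher. At least 2-fold lower were 3, all keratin genes (Krt7, Krt8 and Krt18), against 1.72% of all measured genes. Outside the keratins, Msln had a log2 difference of -0.56 and Upk3b one of -0.14. Upk1b had log2 differences of 0.16 and -0.58 in its 2 measured probe sets, so its direction is unsettled. The summed signal of the 7 markers was 796 in the PR knockout and 1333 in the wild type. Their median log2 difference of -0.62 was the lowest of the cell type marker lists. The keratin gene Krt7 had 44.7 in the PR knockout, against 141 in the wild type, and Krt8 had 162, against 366. Keratins of simple epithelia are also made by cells other than the surface epithelium. Of liver genes, Alb, Ttr and Cyp7a1 were under the floor on both arrays, while the apolipoprotein gene Apoa1 had 210.1 in the PR knockout, against 505 in the wild type. All 4 probe sets of Apoa1 were lower, with log2 differences from -1.50 to -1.26. Of adrenal cortex genes, Cyp21a1 and Mc2r were under the floor on both arrays. Cyp11b1 had 339 in the PR knockout, against 258 in the wild type, and Cyp11b2 had 64.9, against 51.7. Whether other cells contributed to the Nr1h4 difference was not tested.

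**Figure D3:**
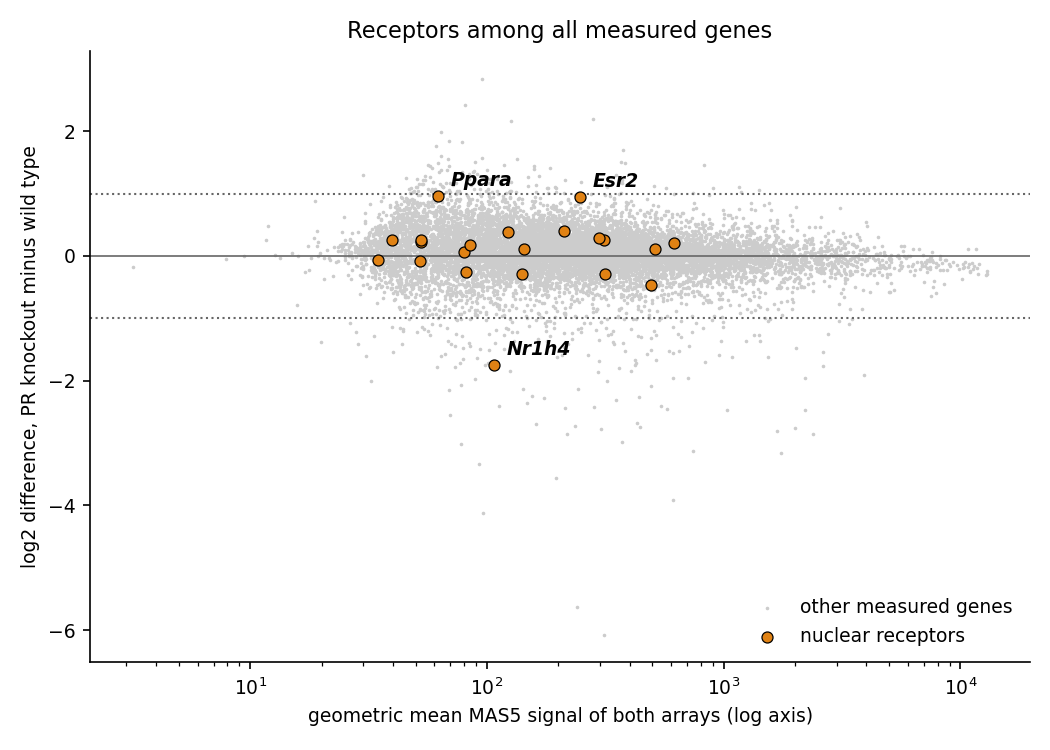
Log2 signal difference (PR knockout minus wild type) against the geometric mean signal of both arrays (log axis) for the 11316 measured genes, with the 21 measured nuclear receptors in orange. Dotted lines mark 2-fold. Nr1h4 (-1.75) lies below the lower line, Esr2 (0.94) and Ppara (0.96) lie just under the upper one, and the other receptors lie among the other genes.

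Nr1h3, which encodes the oxysterol receptor LXR alpha, had a signal of 57.1 in the PR knockout, against 48.7 in the wild type. Its log2 difference of 0.23 was within the spread of probe sets. Of 10 LXR target genes, 8 were measured, 3 of them higher and 5 lower, 0 by 1.5-fold, and their median log2 difference was -0.23. Mylip, which marks lipoprotein receptors for breakdown, had 0.44, the apolipoprotein gene Apoe -0.39 and the fatty acid desaturase gene Scd1 -0.34. Of 8 leukocyte markers, 6 were measured, 2 of them higher and 4 lower, with a median log2 difference of -0.11. The summed signal of all 8 was nevertheless higher in the PR knockout, at 917, against 879.5 in the wild type.

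Nr0b1 encodes DAX-1, which represses steroid synthesis genes by binding steroidogenic factor 1. It had 43.2 in the PR knockout, against 36.2 in the wild type, just under the floor. Both signals lay so close to the floor that the difference carries no size.

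The COUP-TFs are orphan receptors that mostly repress transcription. Nr2f2 had a signal of 662 in the PR knockout, against 570.4 in the wild type, a log2 difference of 0.21. All 5 of its measured probe sets were higher in the PR knockout, up to 0.92 for the one with 486 in the PR knockout, against 257 in the wild type. The probe set with the highest mean signal thus gave the smallest difference for this gene. Nr2f1 had 57.2 in the PR knockout, against 48.1 in the wild type, a log2 difference of 0.25. Nr2f6 ran the other way, at 287 in the PR knockout and 349 in the wild type, with log2 differences of -0.28 and -0.65 in its 2 probe sets.

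Stroma and fibroblast markers were mostly higher beside Nr2f2 and Esr1. All 8 were measured, 6 of them higher and 2 lower, while over all measured genes 57.7% were higher. At 1.5-fold 2 of the 8 were higher and 0 lower, against 6.54% and 4.75% of all measured genes. Tcf21 was at least 2-fold higher, with log2 differences of 1.46 and 1.15 in its 2 measured probe sets. The 8 had summed signals of 21040 in the PR knockout and 18149 in the wild type and a median log2 difference of 0.28. Of 7 theca markers with a probe set, all measured, 4 were higher and 3 lower. Their summed signals were 33592 in the PR knockout and 35155 in the wild type, mostly from Cyp11a1, Hsd3b1 and Star. Their median log2 difference was 0.11. Of the theca markers only Ptch1 differed by at least 1.5-fold, at 1209 in the PR knockout and 615 in the wild type. Smooth muscle markers had summed signals of 9974 in the PR knockout and 10760.5 in the wild type, with 2 of 6 higher. The part of cell makeup in the differences of Nr2f2 and Esr1 was not tested.

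The testicular receptors Nr2c1 and Nr2c2, orphans that are made in many tissues despite the name, had similar signals in both genotypes. Nr2c1 had 148 in the PR knockout, against 138 in the wild type, and its 3 measured probe sets gave log2 differences from 0.03 to 0.25. Nr2c2 had 534 in the PR knockout, against 495 in the wild type, a log2 difference of 0.11. Its other measured probe sets gave -0.34 and -0.36, so its direction is unsettled.

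Nr6a1, the germ cell nuclear factor of oocytes and early embryos, had 50.6 in the PR knockout, against 53.3 in the wild type, and its measured probe sets gave log2 differences of -0.08 and -0.28. Of 10 oocyte markers, 9 were measured and all 9 were higher in the PR knockout, 0 by 1.5-fold. Over all measured genes 57.7% were higher. The summed signal of all 10 oocyte markers was 2991 in the PR knockout and 2632 in the wild type. The median log2 difference of the 9 measured ones was 0.15. Markers of oviduct and uterus were under the floor on both arrays for all 5 genes, with summed signals of 50.6 in the PR knockout and 71.5 in the wild type.

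Across the family, 14 measured receptors were higher and 7 lower in the PR knockout, and the median log2 difference was 0.18. Over all measured genes 57.7% were higher and the median was 0.06. Both depend on signal. Among genes measured on both arrays, the median was 0.12 at mean signals of 37.4 to 67.7 and -0.06 at 1113 to 12954. With that trend removed by loess, the family median was 0.09 and the median of all genes 0.01. Of the receptors, 9 differed by less than the probe set SD of 0.25. Among the 11 receptors with several measured probe sets, 8 had all of them on 1 side of 0; Rxra, Rora and Nr2c2 did not. The nuclear receptors set aside by name are described beside the family, as a list added after its values were seen. Leaving aside the glucocorticoid receptor, which was not analysed here, these are 9 genes, Pgr among them, all measured on both arrays. Of them, Nr4a2 and Nr4a3 were at least 2-fold lower and Nr4a1 at least 1.5-fold lower in the PR knockout. Nr1d1 and Nr1d2 were at least 1.5-fold higher, though the 2 measured probe sets of Nr1d2 gave log2 differences of 0.91 and 0.11. Nr5a1, Nr5a2, Pparg and Pgr differed by less than 1.5-fold, Pgr with signals near the floor. Of all genes measured on both arrays, 1.57% were at least 2-fold lower. At 1.5-fold 4.56% were lower and 6.1% higher. The difference between those 9 and the 21 receptors was not tested.

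The coactivators and corepressors that receptors recruit showed no common direction. Of 22 such genes, 20 had a probe set and 19 were measured, 10 of them higher and 9 lower, with a median log2 difference of 0.07. At 1.5-fold 2 of the 19 were higher and 2 lower, against 6.54% and 4.75% of all measured genes. At 2-fold 1 gene was lower, against 1.72% of all measured genes. That gene was Ncoa7, an estrogen receptor-binding coactivator with a domain linked to oxidative stress resistance. It had a signal of 549.7 in the PR knockout, against 1659.5 in the wild type, 3.02-fold lower. A second measured probe set had a log2 difference of -0.71. Prmt1, an arginine methyltransferase that acts on histones at receptor targets, had 640.1 in the PR knockout, against 383 in the wild type, 1.67-fold higher. Nrip1, a corepressor needed for ovulation in mice, had 1277 in the PR knockout, against 769 in the wild type, but its 6 measured probe sets ran from -0.50 to 1.22.

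**Figure D4:**
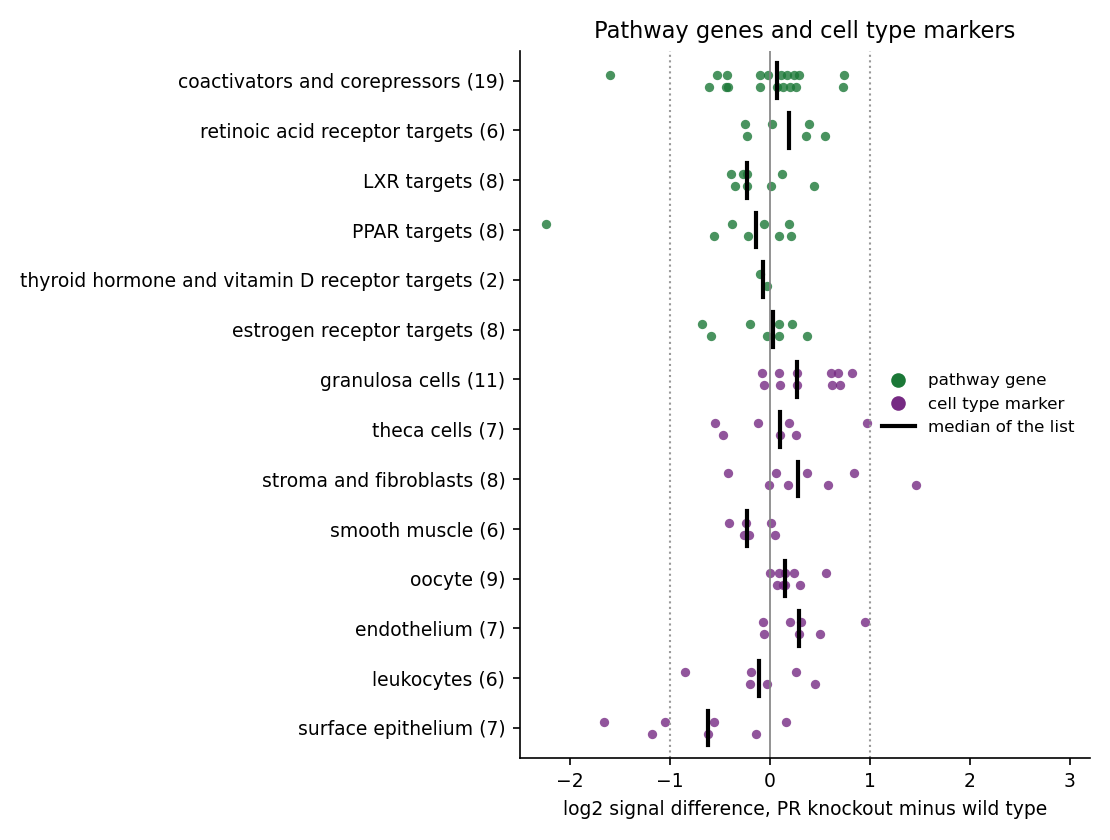
Log2 signal difference (PR knockout minus wild type) of each measured gene in lists of nuclear receptor pathway genes (green) and of cell type markers (purple), with the number measured in brackets, the list's median as a black bar and dotted lines at 2-fold. Medians range from -0.62 (surface epithelium) to 0.29 (endothelium), and the points farthest left are Fabp4 (-2.24), Krt7 (-1.66) and Ncoa7 (-1.59).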

How the data were processed

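Total RNA was measured in 2 ovary samples, 1 PR knockout and 1 wild type. The deposited values are linear intensities per probe set. Per the submitters' processing notes, the authors' intensities came from Affymetrix Expression Console version 1 and MAS5. The mean after trimming 2% at each end was 150 on both arrays. MAS5 subtracts mismatch probes, which makes low signals noisy.

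Control probe sets (64 of 45101) were set aside. Probe sets with 1 symbol in the platform annotation were kept (34945), and each gene took the one with the highest mean log2 signal. All 36 family symbols are current in RefSeq GRCm38.p6. Calculations used Python 3.11.15, pandas 2.3.3 and statsmodels 0.14.6.

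Receptors and lists were chosen with earlier results of these data known. Lists of FXR targets, liver and adrenal genes and of the receptors set aside were added after their values were seen. Every measured receptor and, from each pathway list, the 3 genes farthest from equality were named. Alternatives changed the floor, scaling or probe set choice. The calculation was tested on simulated data.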

Additional observations from a re-analysis of the deposited data

How the results depend on the processing

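Alternatives changed 1 choice at a time, except that 50 units were added in place of the floor, so that 34 receptors counted. Nr1h4 was at least 1.5-fold lower in each of the 9. Its value of -1.75 could not change where only genes were dropped, the floor was removed or the probe set choice was altered. Signs held in all settings that measured them for 18 of the 21 measured receptors, the exceptions being Rxra, Nr2c2 and Esrra. With the 70th-percentile floor 0 receptors were at least 2-fold lower and 1 (Esr2) at least 1.5-fold higher, with 12 measured. With no floor, where 34 receptors count, 2 were at least 2-fold higher and 5 lower, and 4 and 6 at 1.5-fold; 14.95% and 16.4% of all genes then pass 1.5-fold in those directions. With 50 units added and no floor, with the mean over probe sets or without probe sets that match several transcripts, 1 was at least 1.5-fold higher; the last of these drops Esr2, and the others leave Ppara under 1.5-fold. The median log2 difference of the family ran from 0.03 to 0.18. Scaling moved the background at 1.5-fold: 740 genes were higher and 538 lower as deposited, 583 and 645 after median centring, 567 and 613 after quantile normalization, and 514 and 674 without the loess trend. At 2-fold these were 130 and 195 as deposited and 85 and 230 without the loess trend. Esr2 and Ppara stayed at least 1.5-fold higher under all 3 scalings. A single log2 difference was counted as moved if it shifted by more than the probe set SD of 0.25, which held for 8 of 174. Many of the 174 could not move. Keeping only genes above the floor on both arrays left each remaining value as it was, as did dropping probe sets that match several transcripts. Removing the floor changed only values with a signal under it, and median centring shifted all by the same 0.06. The count is therefore no measure of stability. No paired analysis was possible because each genotype has 1 array.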
